A study of Mus musculus and Homo sapiens
Mus musculus with 12 samples.

Results

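The cadherin and protocadherin genes of the mouse brain were examined in single-nucleus total RNA libraries. Members were taken by symbol: Cdh or Pcdh followed by a number, and Pcdha, Pcdhb or Pcdhg with a number. This rule found 34 of the 34496 genes listed in 7 brain libraries. By textbook family they are 4 type I cadherins (Cdh1, Cdh2, Cdh3, Cdh4), 13 type II cadherins (Cdh5 to Cdh12, Cdh18, Cdh19, Cdh20, Cdh22, Cdh24), 5 further cadherins (Cdh13, Cdh16, Cdh17, Cdh23, Cdh26), 3 delta 1 protocadherins (Pcdh1, Pcdh7, Pcdh9), 5 delta 2 protocadherins (Pcdh8, Pcdh10, Pcdh17, Pcdh18, Pcdh19), 3 other protocadherins (Pcdh12, Pcdh15, Pcdh20) and 1 clustered protocadherin (Pcdha1). The name classical cadherin fits the type I and type II genes, and the remaining members were kept because the rule matched their symbols. Cdh15 and the other clustered protocadherins were not analysed here.

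Cadherins are calcium-dependent adhesion proteins of the cell surface, and classical cadherins bind the same or a related cadherin on the neighbouring cell. Their cytoplasmic tails bind beta-catenin and p120-catenin, and alpha-catenin links this complex to actin. Type I genes include E-cadherin (Cdh1) of epithelia and N-cadherin (Cdh2) of neural tissue, while type II genes are known for combinatorial expression among brain regions and cortical layers. Non-clustered protocadherins adhere more weakly and signal through other tail motifs, and Cdh23 and Pcdh15 form the tip links of inner ear hair cells.

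The nuclei came from brains of wild-type C57BL/6J male mice aged 6 to 8 weeks, with no transgene or drug in any group. Nuclei isolated from frozen brain gave 2 libraries without a preindex (No_index_frozen) and 2 with a preindex on the reverse transcription primer (Index_frozen), and nuclei from fresh brain gave 2 libraries without (No_index_fresh) and 1 with the preindex (Index_fresh). Nothing states that the libraries of a group came from separate animals, so p-values measure the spread between these libraries only. Random primers were used, and each count is a unique fragment identifier (UFI) over the whole gene, introns included.

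Libraries held 700 to 3100 nuclei, 8605214 to 42439731 UFIs and a median of 9012 to 27543 UFIs per nucleus. Among 11198 nuclei, 32 barcodes occurred in more than 1 library. Of the nuclei of Index_frozen replicates 1 and 2, 268 (11.65%) and 213 (10.66%) formed a cluster with kidney markers, which goes against the brain label, and the other libraries had 0 nuclei in it. Index_fresh held 19 liver-like nuclei. Nuclei were grouped without using the member genes, so that the members did not define the classes, and a group was named "-like" from marker lists that hold no member. The 25 named classes with enough nuclei gave 137 sums of UFIs, each over at least 10 nuclei of 1 library and 1 class, expressed as CPM, the UFIs of a gene scaled to the same total in every sum. Ranks and highest means are among these 25 classes. The kidney cluster also held endothelial cell-like (19 and 16) and fibroblast-type vascular cell-like (27 and 18) nuclei, which were named but left out of the class fit. Doublets were not removed, and 4008 nuclei in groups that could not be named were left out of class comparisons.

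Neuronal transcripts were also present in the sums of other cells. The 6 neuron markers summed to 15040 to 16810 CPM in upper layer neuron-like nuclei, 7129 to 12290 CPM in astrocyte-like, 7249 to 12150 CPM in oligodendrocyte-like, 11540 to 14580 CPM in microglia-like and 3809 to 12270 CPM in endothelial cell-like nuclei. Neuron classes also differed in this sum. It was 6596 to 6996 CPM in Purkinje cell-like, 9275 to 11250 CPM in thalamic neuron-like and 17020 to 25620 CPM in Adarb2 interneuron-like nuclei. The list is therefore no direct measure of the neuronal share. In the 3 kidney tubule classes the same list summed to only 30.02 to 290.6 CPM. The share of these transcripts in the glial and vascular levels of neuronal cadherins given here was not tested.

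Pcdh9, Pcdh7, Pcdh15, Cdh13 and Cdh18 carried the most UFIs, at 686024, 165768, 163931, 141521 and 128921 over the 7 libraries. Shares of nuclei with a UFI, the 20 CPM threshold and summed CPM used below are not scaled by gene length. Long introns add to whole-gene counts, so these totals were also set beside each other per kilobase of gene. On that scale Pcdh9 remained first with 782 UFIs per kb of its 877.3 kb, followed by Pcdh1 with 684.5, Pcdh7 with 399.2, Cdh11 with 384.6 and Cdh2 with 382.5 UFIs per kb. Pcdh15 spans 1550 kb and fell to 105.7 UFIs per kb, whereas Pcdh20, only 6.654 kb long, reached 346.9 UFIs per kb.

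A UFI of Pcdh9 was found in 94.7% of all nuclei, of Cdh2 in 87.9% and of Pcdh7 in 86.6%. At the other end were Cdh26 with 57 UFIs in 54 nuclei, Cdh17 with 62 UFIs in 61 nuclei, Pcdh12 with 66 in 52 nuclei and Cdh3 with 136 in 110 nuclei. Pcdha1 had 234 UFIs over a span of 257.5 kb that it shares on the same strand with 15 other protein-coding genes of the alpha cluster. Its count is therefore uncertain, since reads of shared exons and nested genes may have been split or dropped.

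Several members share a chromosome (GRCm38), and genes between them were not examined. On chromosome 15, Cdh6 (15:13028701-13173675), Cdh9 (15:16728756-16857094), Cdh10 (15:18818947-19014236), Cdh12 (15:20449265-21589533) and Cdh18 (15:22549022-23474418) follow each other, and all are type II cadherins. On chromosome 1, the type II genes Cdh20 (1:104768529-104995481), Cdh7 (1:109982431-110140157) and Cdh19 (1:110888326-110977584) come in sequence among the members. Chromosome 8 holds the most members, 7, among them Cdh3 (8:106510891-106557297) followed by Cdh1 (8:106603351-106670246). Chromosome 14 holds Cdh24, Pcdh8, Pcdh17, Pcdh20 and Pcdh9. Cdh18 was highest in Purkinje-like and layer 6 corticothalamic nuclei, Cdh9 in dentate granule nuclei, and Cdh10 and Cdh12 in Rorb cortical nuclei.

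The promoters of 3 members that were higher together in dentate granule neuron-like nuclei are shown, so that the sequence before their start sites can be read beside the levels. They are the 250 bases before the RefSeq start of Cdh9 (GRCm38.p6, 15:16728665-16728914, plus strand), Pcdh20 (14:88471397-88471646, minus strand) and Pcdh8 (14:79771313-79771562, minus strand), written 5′ to 3′ along the gene. Capitals mark letters that match a searched motif on either strand.

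Cdh9: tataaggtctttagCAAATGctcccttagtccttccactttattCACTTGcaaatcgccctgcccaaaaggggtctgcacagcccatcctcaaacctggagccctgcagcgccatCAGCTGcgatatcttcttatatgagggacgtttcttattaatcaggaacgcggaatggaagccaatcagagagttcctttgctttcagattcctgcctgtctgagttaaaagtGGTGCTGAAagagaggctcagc

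Pcdh20: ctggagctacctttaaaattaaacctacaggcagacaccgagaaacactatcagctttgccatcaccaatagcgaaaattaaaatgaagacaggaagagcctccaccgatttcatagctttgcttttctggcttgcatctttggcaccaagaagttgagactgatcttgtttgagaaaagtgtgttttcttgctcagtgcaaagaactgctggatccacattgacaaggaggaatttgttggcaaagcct

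Pcdh8: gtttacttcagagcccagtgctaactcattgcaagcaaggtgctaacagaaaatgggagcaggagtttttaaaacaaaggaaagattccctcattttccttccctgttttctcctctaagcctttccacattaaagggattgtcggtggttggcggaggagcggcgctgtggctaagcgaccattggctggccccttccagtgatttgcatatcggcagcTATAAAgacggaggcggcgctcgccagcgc

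The Cdh9 window held 3 E-boxes (CANNTG) and 1 match to the core of the neuron-restrictive silencer element (TTCAGCACC, here on the other strand), the Pcdh8 window held 1 TATA box (TATAAA), and the Pcdh20 window held no searched motif. Of 32851 mouse promoters of the same length, 66.2% had an E-box, 12.4% TATAAA and 0.301% TTCAGCACC. The cyclic AMP response element TGACGTCA was in 1.55% of promoters and CAGATG, 1 form of the E-box, in 14.4%, and none of these windows had either. The GC content was 48.0%, 42.4% and 51.2%, against a median of 58.2% over 24 windows of members off chromosome 18 and 52.4% over all promoters. These windows did not cover every member, and Cdh7 and Pcdh9 had more than 1 each. A match is a description of letters only.

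The first question was where in the brain each member was highest. Of the 34 members, 31 had enough counts to be tested between classes, and Cdh3, Cdh17 and Cdh26 did not. All 31 were higher in at least 1 class than in the mean of the other classes, by edgeR's quasi-likelihood test with Benjamini-Hochberg adjustment over 12377 genes (adjusted p under 0.05 and a log2 difference over 1), a call that 66.8% of all tested genes also received. A gene seen in few classes passes the count filter through the class where it is high, so this count is a description. The mean includes 3 kidney classes in which most members are near 0.

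**Figure D1:**
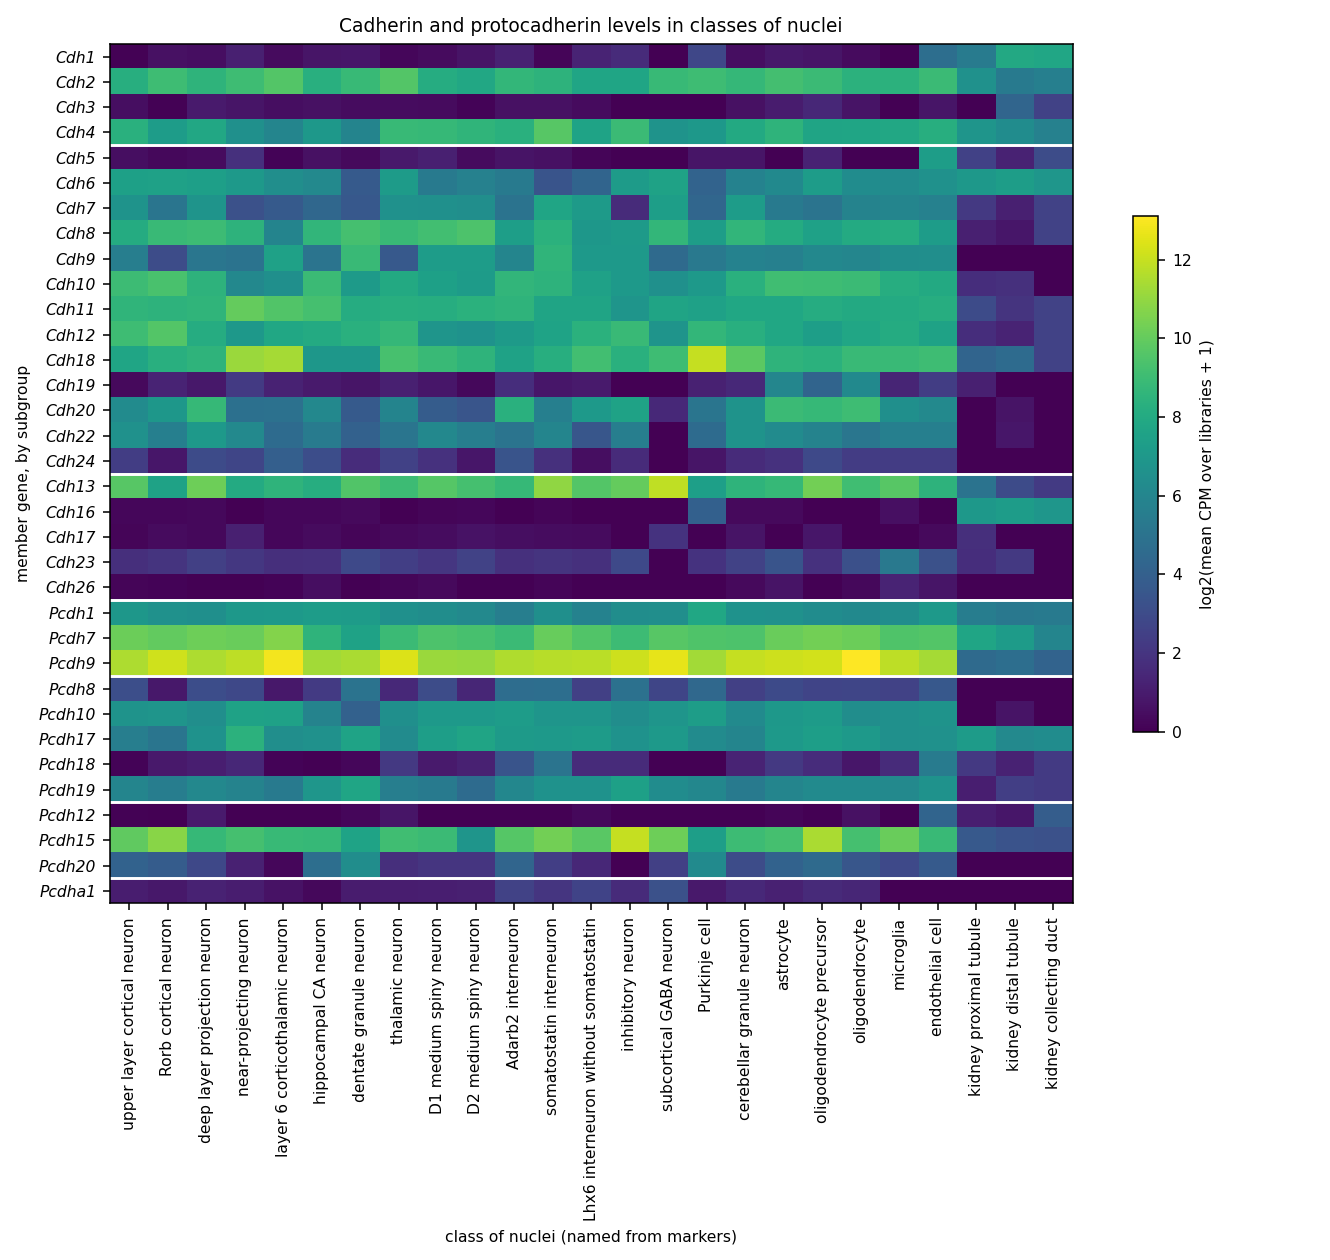
Mean level of the 34 members (rows, ordered by cadherin subgroup) in 25 classes of nuclei (columns), as log2(mean CPM + 1) over libraries. Cdh1 and Cdh16 are bright in the kidney columns, Cdh5 in the endothelial column and Cdh19 in the oligodendrocyte and astrocyte columns, while Pcdh9, Pcdh7 and Cdh2 are above 20 CPM in every brain class.

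Brain classes held 17 to 23 members at a mean of at least 20 CPM, and kidney tubule classes 8 to 10. The summed member level was highest in layer 6 corticothalamic neuron-like nuclei, 15520 CPM, of which Pcdh9 gave 7668 CPM, followed by subcortical GABA neuron-like nuclei with 14770 CPM and oligodendrocyte-like nuclei with 14650 CPM. It was lowest among brain classes in D2 medium spiny neuron-like nuclei, 6542 CPM. Cdh2, Cdh4, Pcdh1, Pcdh7 and Pcdh17 exceeded 20 CPM in all 25 classes, kidney included.

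Against the mean of the other classes, most brain classes had more members higher than lower, as did the genes as a whole. Upper layer nuclei had 15 of 31 members higher (background 12.2%), thalamic nuclei 12 (12.1%), Adarb2 interneurons 11 (10.9%), somatostatin interneurons 13 (10.3%), other Lhx6 interneurons 9 (10.3%) and dentate granule nuclei 9 (11.8%). Layer 6 corticothalamic nuclei had 8 (10.6%), cerebellar granule nuclei 8 (9.28%), the small inhibitory class 9 (5.95%), subcortical GABA nuclei 7 (6.9%) and Purkinje-named nuclei 5 (12%). Tested among brain classes only, with no kidney class in the mean, the counts were smaller. Of 30 members, 6 were higher in upper layer (7.35% of all genes), 6 in thalamic (8.21%), 5 in Adarb2 (6.79%) and 7 in somatostatin nuclei (5.85%). Other Lhx6 nuclei had 3 (6.91%), dentate 5 (8.55%), layer 6 corticothalamic 7 (6.05%) and cerebellar granule nuclei 2 (5.42%). The small inhibitory class had 5 (4.28%), subcortical GABA 3 (4.68%) and Purkinje-named nuclei 3 (9.73%).

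Among brain classes, lower calls were most frequent in the dentate class, with 6 members (background 4.36%), followed by 3 in layer 6 corticothalamic (4.05%) and 3 in Purkinje-named nuclei (3.29%). A single member was lower in D2 (Pcdh15, 5.13%), in Rorb and near-projecting nuclei (Pcdh17, 2.87%, and Cdh4, 2.85%), in both Lhx6 classes (Cdh6, 3% without and 1.73% with somatostatin), in hippocampal CA nuclei (Cdh18, 3.75%) and in the small inhibitory class (Cdh7, 2.51%). By edgeR's quasi-likelihood test 0 were lower in upper layer (3.14%), deep layer projection (2.21%), thalamic (2.19%), D1 (3.56%), Adarb2 (1.37%), subcortical GABA (2.51%), cerebellar granule (1.32%), astrocyte-like (0.25%), oligodendrocyte-like (0.38%), precursor (0.921%), microglia-like (0.355%) and endothelial nuclei (0.646%). At an unadjusted p under 0.05, for which no background was computed, 0 to 3 members were lower in these classes, with 3 in Adarb2 nuclei. Tested among brain classes only, with no kidney class in the mean, 5 of 30 members were lower in subcortical GABA nuclei (4.46%). Upper layer (4.22%), thalamic (3.5%), D1 (4.99%) and Adarb2 nuclei (1.74%) had 2 each. Endothelial nuclei had 1 (1.43%), and the remaining classes with 0 stayed at 0. Dentate nuclei had 8 (6.45%), Purkinje-named (5.73%) and near-projecting nuclei (3.55%) 7 each, layer 6 corticothalamic 6 (5.77%) and Rorb nuclei 4 (3.83%).

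In the cortex, upper layer nuclei were set against layer 6 corticothalamic nuclei, the cells that project back to the thalamus, with sums from 7 and 6 libraries, of which 6 held both. Of 31 members, 11 were higher in upper layers and 5 in layer 6, where 12.5% of all tested genes were called in either direction. The median log2 difference was 0.34 over members and 0.01 over all genes.

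Cdh18, a type II cadherin, was at 152.4 to 287.5 CPM (median 188.5) in upper layer and 2247 to 3645 CPM (median 2456) in layer 6 corticothalamic sums, a log2 difference of -3.73 ± 0.33 (SE; edgeR quasi-likelihood test, adjusted p = 3.05e-19). The ranges did not overlap, and Cdh18 was lower in upper layers in 6 of 6 libraries. Cdh9 went the same way, 31.68 to 63.86 CPM (median 51.63) against 141.1 to 238.0 CPM (median 173.6), with a log2 difference of -1.91 ± 0.24 (adjusted p = 1.31e-11). So did N-cadherin (Cdh2), at medians of 316.3 and 788.9 CPM (log2 difference -1.34 ± 0.14, adjusted p = 3.02e-14), and Pcdh9, at 3003 and 7516 CPM (-1.38 ± 0.17, adjusted p = 3.98e-12). Cdh24 was low in both, with medians of 2.458 and 14.39 CPM and overlapping ranges, and its log2 difference was -2.20 ± 0.34 (adjusted p = 3.19e-08).

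Upper layer nuclei were higher in 6 type II genes. Cdh7 was at 83.08 to 153.3 CPM (median 91.98) against 4.858 to 19.63 CPM (median 12.87), a log2 difference of 3.18 ± 0.29 (adjusted p = 3.83e-18). Cdh10 was at 435.8 to 560.2 CPM (median 525.0) against 59.68 to 128.5 CPM (median 89.82), a difference of 2.53 ± 0.21 (adjusted p = 2.51e-20). It fell under the log2 threshold of 1 with other clustering settings, to 0.88 at resolution 0.4 and 0.97 with 20 principal components (adjusted p = 5.03e-05 and 2.65e-05). Cdh8, Cdh22, Cdh20 and Cdh12 followed with log2 differences of 2.23, 2.04, 1.46 and 1.23, each without overlap between the ranges. R-cadherin (Cdh4), the type I relative of N-cadherin, was also higher in upper layers, at a median of 327.8 against 66.24 CPM (2.37 ± 0.26, adjusted p = 9.57e-14), so that the type I genes Cdh2 and Cdh4 took opposite directions.

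Pcdh20 showed the largest difference, 7.041 to 28.75 CPM (median 13.46) in upper layers against 0 to 0.9217 CPM in layer 6, where 5 of 6 sums held no UFI. Its fitted log2 difference of 5.69 ± 0.57 (adjusted p = 7.52e-16) rests on that near-zero group and is no measure of fold. Pcdh8 went the same way at medians of 8.624 and 0 CPM. Cdh13, the GPI-anchored T-cadherin, was higher in upper layers, at 882.2 against 362.4 CPM (1.24 ± 0.29, adjusted p = 0.000333), but the direction turned, to -1.04 with an adjusted p of 0.000319, when nuclei were grouped with 20 principal components.

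**Figure D2:**
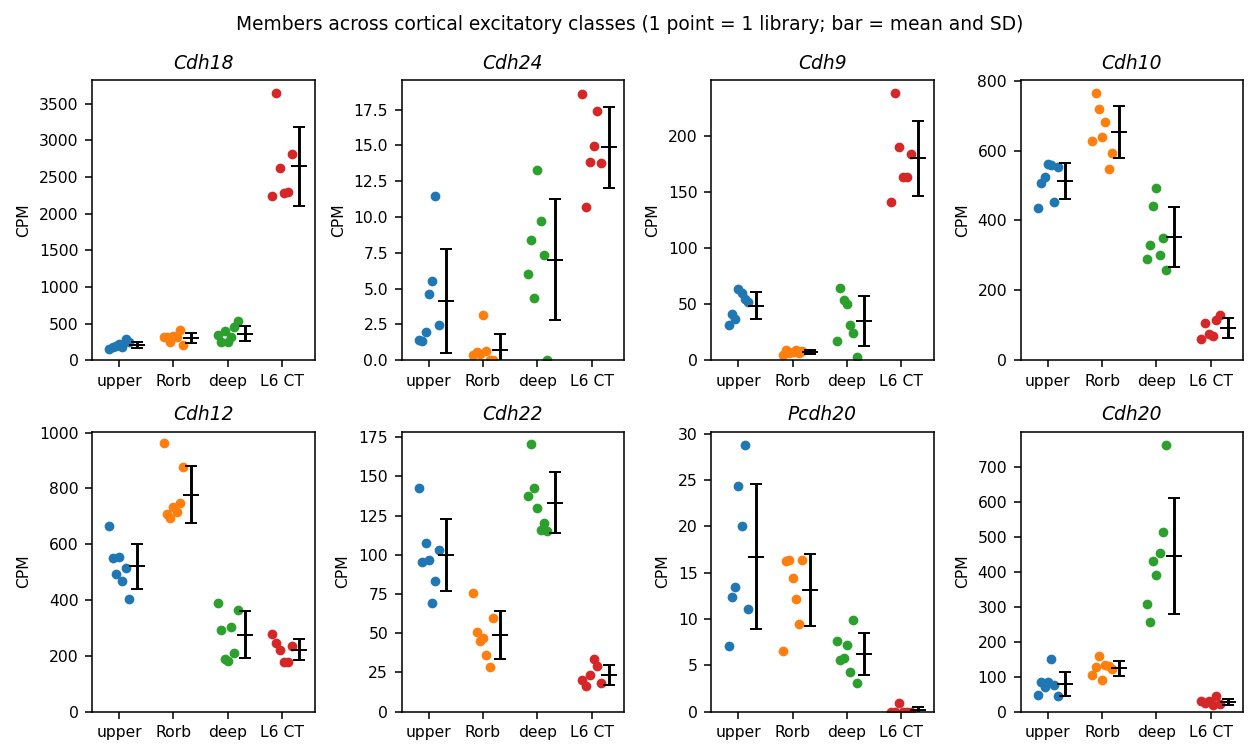
Level of 8 members (CPM, one panel per gene) in upper layer, Rorb, deep layer projection and layer 6 corticothalamic neuron-like nuclei, with a point per library and a bar for the mean and SD. Cdh18 is above 2000 CPM in every layer 6 corticothalamic sum and below 300 CPM in every upper layer sum, while Cdh10 and Cdh22 show the opposite order.

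Rorb cortical nuclei, the middle layers that receive thalamic input, had the highest mean of Cdh12, 692.5 to 964.1 CPM (median 734.3), and of Cdh10, 546.1 to 765.9 CPM (median 638.3). Against the mean of the other classes these were log2 differences of 2.74 ± 0.15 and 2.63 ± 0.13 (adjusted p = 1.25e-35 and 4.38e-38), and 11 members were called higher where 11.4% of all genes were. Among brain classes only, 5 of 30 members were called higher, with a background of 6.68%. Pcdh15 stood at 1515 to 2097 CPM (median 1861), a difference of 2.47 ± 0.17.

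Deep layer projection nuclei, marked by Fezf2 and Etv1, led in Cdh22 at 115.4 to 170.8 CPM (median 129.7; log2 difference 2.89 ± 0.18, adjusted p = 1.27e-29) and held Cdh20 at 254.8 to 762.6 CPM (median 431.2; 3.78 ± 0.20). Near-projecting nuclei, found in 4 libraries, had Cdh18 at 1452 to 3225 CPM, Cdh11 at 808.9 to 1167 CPM and Pcdh17 at a mean of 339.2 CPM, the latter 2 being the highest means of any class. Of 31 members, 13 were called higher in deep layer projection nuclei, with a background of 10.9%, and 6 in near-projecting nuclei, with a background of 8.59%. Among brain classes only, these were 7 of 30 (background 5.62%) and 4 of 30 (background 4.68%).

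In interneurons, the class marked by Adarb2 (which includes Vip and Lamp5 cells) was set against the mean of the 2 classes marked by Lhx6, with and without somatostatin. These come from the caudal and the medial ganglionic eminence, respectively. Of 31 members, 5 were higher in Adarb2 and 4 in Lhx6 nuclei, with 9.88% of all genes called, and the median log2 difference was -0.13 over members and 0.02 over all genes.

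Cdh7 was at 8.035 to 81.77 CPM (median 26.30) in Adarb2 and 127.5 to 209.5 CPM (median 179.5) in Lhx6 nuclei, a log2 difference of -2.51 ± 0.24 (adjusted p = 4.75e-17), lower in 7 of 7 libraries. Cdh9 was at medians of 56.25 and 253.2 CPM (-1.82 ± 0.22, adjusted p = 1.38e-11), and Cdh13 at 440.0 and 1363 CPM (-1.49 ± 0.26, adjusted p = 9.67e-07), again with no overlap. In the other direction, Cdh20 was at 208.9 to 412.0 CPM (median 328.3) against 61.34 to 109.6 CPM (median 93.79), a difference of 2.04 ± 0.23 (adjusted p = 2.70e-13).

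Among low genes, Cdh24 was at 6.393 to 13.63 CPM in Adarb2 and 0 to 3.420 CPM in Lhx6 nuclei (2.91 ± 0.44, adjusted p = 3.59e-08), whereas the ranges of Pcdh20, Cdh6 and Pcdh8 overlapped. Their log2 differences were 2.87, 1.70 and 1.21. That of Cdh6 was under 1 at resolution 0.4 (0.94) and with 20 principal components (0.90), and that of Pcdh8 at resolution 0.4 (0.73) and when clustering used the members (0.94). The fourth gene higher in Lhx6 nuclei was Cdh18 (-1.08 ± 0.28, adjusted p = 0.00153), at -0.98 with at least 30 nuclei per sum. The 2 Lhx6 classes were not alike in every member. Somatostatin nuclei held Cdh9 at 276.1 to 462.0 CPM and Cdh13 at a mean of 1992 CPM, and the class without somatostatin held Cdh9 at 101.9 to 186.1 CPM, a difference that was not tested directly. Against the mean of the other classes, Pcdh8 was called higher in somatostatin nuclei, as in Adarb2 nuclei, but not in the class without somatostatin.

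Somatostatin nuclei also had Pcdh18 at 17.13 to 41.04 CPM (median 31.10), a log2 difference of 4.48 ± 0.28 from the mean of the other classes (adjusted p = 2.95e-29), and the highest mean Cdh4 of any class, 826.6 CPM. Besides these, Pcdh18 passed 20 CPM among the 25 classes only in endothelial nuclei, and outside the fit its mean was 38.02 CPM in the fibroblast-type nuclei of the kidney cluster. Its median over the classes other than somatostatin nuclei was 1.401 CPM, so the Pcdh18 difference is a description and no measure of fold. A small class named only as inhibitory neuron-like, 35 nuclei in 3 libraries, had the highest Pcdh15, at 3245, 4341 and 4368 CPM, with a difference of 3.33 ± 0.24 (adjusted p = 4.40e-25). Subcortical GABA nuclei, 37 nuclei in 2 libraries, had the highest Cdh13, at 3375 and 3938 CPM (3.35 ± 0.28).

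In the striatum, D1 and D2 medium spiny neuron-like nuclei were compared next. They form the direct and indirect output pathways. The D1 class joined 2 clusters, of 521 nuclei and of 315 nuclei led by Drd3 and Tac1, while the D2 class was a single cluster of 493 nuclei. Members were not compared between the D1 clusters, so their part in the differences was not tested. Of 31 members, 2 were called, both higher in D1, and 2% of all tested genes were called. The median log2 difference was 0.14 over members and 0.03 over all genes.

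Pcdh15 was at 284.3 to 697.4 CPM (median 493.1) in D1 and 57.90 to 187.2 CPM (median 111.9) in D2 nuclei. The ranges did not overlap, and D1 was higher in 7 of 7 libraries, with a log2 difference of 2.14 ± 0.30 (edgeR quasi-likelihood test, adjusted p = 1.28e-08). Pcdh8 was at 0 to 18.02 CPM (median 6.418) against 0 to 4.841 CPM (median 1.049), a difference of 2.32 ± 0.53 (adjusted p = 0.00166), higher in D1 in 5 of 7 libraries, and without No_index_fresh replicate 2 the adjusted p was 0.0514.

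Cdh8, a type II gene, was at 385.0 to 678.9 CPM (median 574.0) in D1 and 587.4 to 808.4 CPM (median 706.8) in D2 nuclei. D2 was higher in 7 of 7 libraries, but the log2 difference of -0.34 ± 0.20 did not pass (adjusted p = 0.578). Cdh9 stood at medians of 145.6 and 139.6 CPM (0.02 ± 0.21, adjusted p = 1.0). Set against the mean of the other classes, 8 members were higher in D1 (background 11.9%) and 9 in D2 nuclei (background 11.8%), both with Cdh8, Cdh9, Cdh7, Cdh22, Cdh4, Cdh13 and Pcdh10, and Pcdh15 was lower in D2. Among brain classes only, 5 of 30 were higher in D1 (8.03%) and 4 in D2 nuclei (8.48%), and both held only Cdh8, Cdh9 and Cdh7 in common. In that fit 2 were lower in D1 (4.99%) and 5 in D2 nuclei (7.19%), Pcdh15 among the latter.

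**Figure D3:**
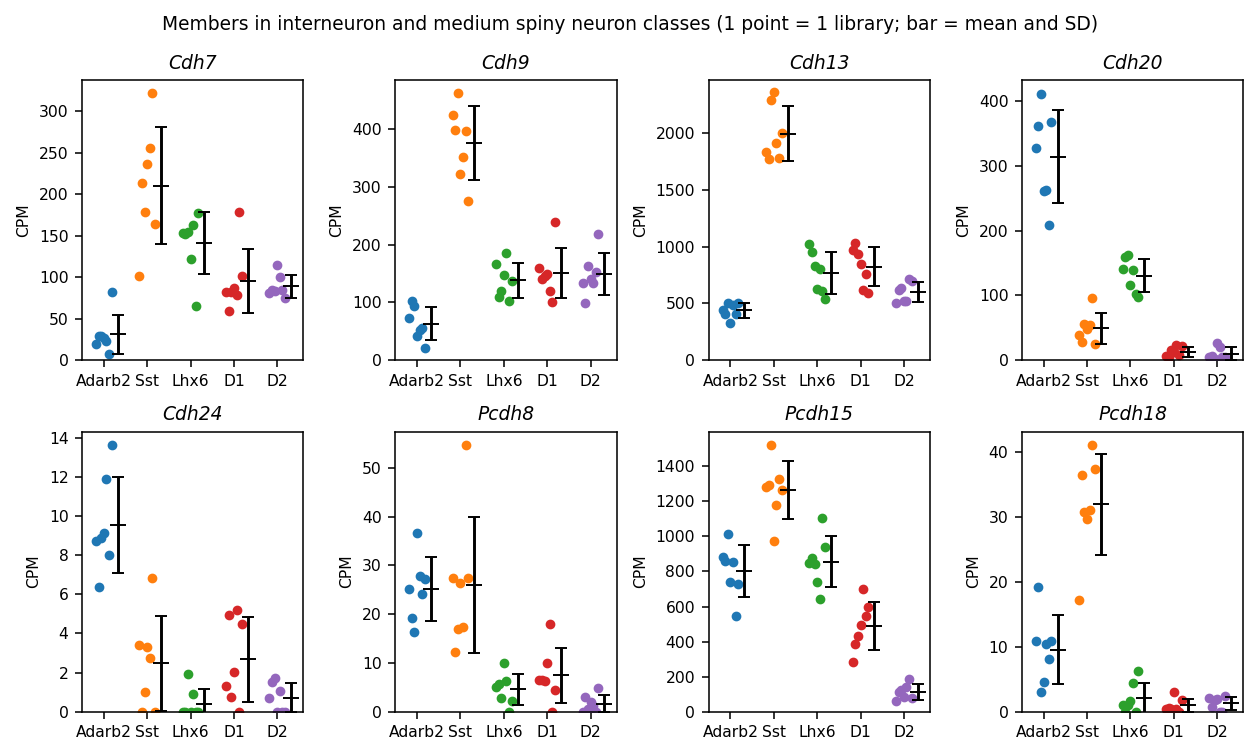
Level of 8 members (CPM, one panel per gene) in Adarb2, somatostatin, other Lhx6, D1 and D2 nuclei, with a point per library and a bar for the mean and SD. The means of Cdh7, Cdh9 and Cdh13 are higher in both Lhx6 classes than in Adarb2 nuclei, that of Cdh20 is lower in both, and Pcdh15 separates D1 from D2 in every library.

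In the hippocampus, dentate granule neuron-like nuclei were set against the mean of 5 cortical excitatory classes. Cortical CPM values here and for the thalamus are means over the classes present in a library. The log2 difference instead averages the fitted log2 values of the classes, so it need not match the ratio of the CPM values. Dentate granule cells are the input neurons of the hippocampus and receive axons from the entorhinal cortex. Of 31 members, 7 were higher in the dentate class and 10 lower, with 16.4% of all genes called, and the median log2 difference was -0.25 over members and 0.06 over all genes.

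Cdh9 was at 353.6 to 541.1 CPM (median 479.1) in dentate and 20.95 to 72.92 CPM (median 63.98) in cortical sums, a log2 difference of 3.68 ± 0.16 (adjusted p = 1.61e-42). Pcdh20 was at 57.27 to 105.4 CPM (median 86.89) against 4.229 to 12.01 CPM (median 8.350), a difference of 4.46 ± 0.20 (adjusted p = 3.34e-42), and both were higher in 7 of 7 libraries. These were the highest class means of either gene.

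Pcdh8 (arcadlin), known as an activity-regulated protocadherin, was at 16.82 to 55.30 CPM (median 32.19) against 2.771 to 6.958 CPM (median 3.673), with a difference of 3.26 ± 0.27 (adjusted p = 1.78e-20). The X-linked epilepsy gene Pcdh19 was at 167.5 to 251.9 CPM (median 209.3) against 48.99 to 63.75 CPM (median 54.81), a difference of 1.99 ± 0.14 (adjusted p = 2.06e-26). Pcdh17, at medians of 190.1 and 89.73 CPM, and Cdh8, at 631.9 and 333.0 CPM, were also higher without overlap. The Pcdh17 difference was under 1 on the log2 scale at resolution 0.4 (0.92) and when clustering used the members (0.91). Near-projecting nuclei, 1 of the cortical classes, had more Pcdh17 than the dentate class, at a mean of 339.2 CPM. Cdh23 was called at 1.04 ± 0.43 with an adjusted p of 0.0454, but its ranges overlapped and the call was lost in 7 of the alternatives tried.

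Among members lower in the dentate class, Cdh6 was at 2.519 to 25.94 CPM (median 9.874) against 118.0 to 188.7 CPM (median 153.8), a log2 difference of -3.42 ± 0.27 (adjusted p = 4.52e-22). Pcdh10 (OL-protocadherin) was at 5.925 to 29.89 CPM against 81.79 to 159.1 CPM (-2.94 ± 0.20, adjusted p = 1.04e-27), and Pcdh7 at medians of 178.6 and 1202 CPM (-2.65 ± 0.18, adjusted p = 4.57e-27). Cdh18, Cdh20, Pcdh15, Cdh22, Cdh7 and Cdh4 had differences of -2.54 to -1.33 with no overlap, and Cdh24 of -1.02 with overlap. The Cdh24 call was lost with no filter, with at least 30 nuclei per sum, without No_index_frozen replicate 1 and without Index_frozen replicate 1 (adjusted p = 0.0714, 0.0669, 0.0668 and 0.0805). The Cdh7 difference had an adjusted p of 0.2145 without No_index_fresh replicate 2.

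Hippocampal CA nuclei held Cdh10 at 339.5 to 629.8 CPM (median 473.8), Cdh11 at 399.0 to 787.7 CPM (median 591.5) and Pcdh20 at 17.66 to 42.75 CPM (median 22.84). Against the mean of the other classes 10 members were higher (background 10.8%), and Cdh18 was lower. Among brain classes only, 4 of 30 were higher (background 6.7%), and Cdh18 was again lower.

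In thalamic neuron-like nuclei, which relay sensory input to the cortex, 4 members were higher than in the mean of the cortical classes and 3 lower, with 16% of all genes called. The median log2 difference was 0.03 over members and 0.06 over all genes. Cdh4 was at 339.3 to 566.4 CPM (median 471.5) against 156.8 to 211.9 CPM (median 187.4), without overlap (1.63 ± 0.17, adjusted p = 1.04e-15). Cdh7 was at medians of 109.3 and 61.19 CPM, higher in 6 of 7 libraries (1.54 ± 0.20, adjusted p = 1.88e-11). Its mean in thalamic nuclei, 98.87 CPM, was below that in upper layer nuclei, 105.8 CPM. The cortical mean also holds layer 6 corticothalamic nuclei, at 12.34 CPM.

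Pcdh7 was lower in thalamic nuclei, at 393.2 to 630.1 CPM (median 456.1) against 1101 to 1315 CPM (median 1202), a difference of -1.29 ± 0.16 (adjusted p = 9.44e-12). Cdh22 was at medians of 33.22 and 76.70 CPM (-1.04 ± 0.18) and Cdh9 at 10.81 and 63.98 CPM (-1.80 ± 0.31, adjusted p = 4.18e-07). The Cdh22 difference did not reach 1 on the log2 scale in 4 alternatives, with -0.97 with 20 principal components, -0.96 when clustering used the members, -0.97 without No_index_fresh replicate 1 and -0.96 without Index_fresh. Pcdh18 and Pcdh12 were called higher from medians of 3.167 and 0 CPM, and both overlapped the cortical range. Pcdh12 was not called by DESeq2 (adjusted p = 0.926), nor by edgeR without No_index_fresh replicate 1 (adjusted p = 0.385).

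**Figure D4:**
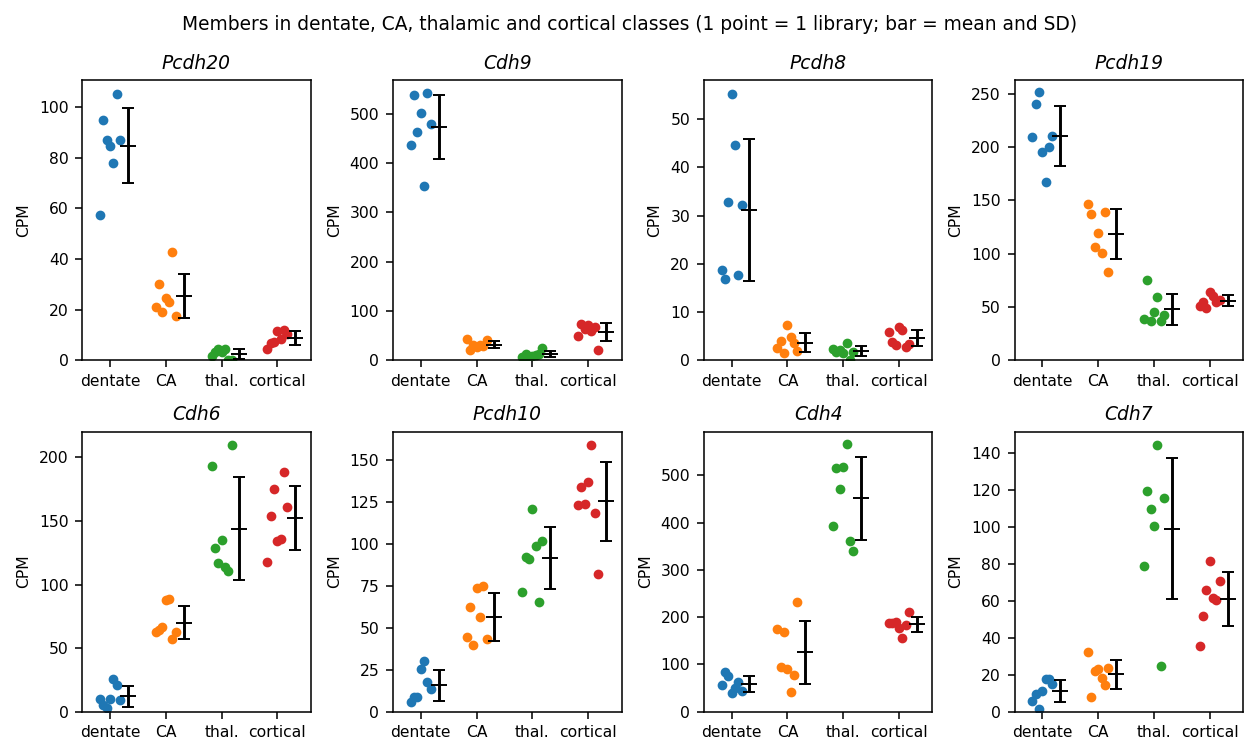
Level of 8 members (CPM, one panel per gene) in dentate granule, hippocampal CA, thalamic and cortical excitatory nuclei, with a point per library and a bar for the mean and SD. Pcdh20, Cdh9, Pcdh8 and Pcdh19 are highest in the dentate class, Cdh6 and Pcdh10 are below their cortical values there, and Cdh4 and Cdh7 are higher in thalamic than in cortical nuclei.

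Cerebellar granule neuron-like nuclei were present with at least 10 nuclei only in the 4 libraries without a preindex. They held Cdh22 at 91.60 to 121.3 CPM and Cdh7 at 122.1 to 202.5 CPM, log2 differences of 2.46 ± 0.24 and 2.24 ± 0.22 from the mean of the other classes. Purkinje cell-like sums existed in 3 libraries. Cdh18 reached 6065 and 5969 CPM in No_index_frozen replicates 1 and 2 but 91.39 CPM in Index_frozen replicate 1. In that library the Purkinje-named nuclei also had kidney proximal tubule markers at 655.0 CPM and 3 UFIs of Cdh16, so its values go against the name.

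Among glia, oligodendrocyte-like nuclei, which make myelin, led in Cdh19, Cdh20 and Pcdh9 by log2 difference from the mean of the other classes. Of 31 members, 6 were higher than in the mean of the other classes (background 12.2%), and 4 of the 30 tested among brain classes only, where 10.3% of all genes were. Cdh19 was at 26.73 to 106.7 CPM (median 73.50), with a median of 1.081 CPM over the other classes and a log2 difference of 5.96 ± 0.21 (adjusted p = 1.80e-53). Here and in astrocyte-like nuclei below, the Cdh19 difference is set against classes near 0, and the gene passed the count filter through its high classes. It is a description and no measure of fold. Pcdh9 was at 5897 to 12870 CPM (median 8345), the highest mean of any class, with a difference of 2.26 ± 0.10 (adjusted p = 6.57e-45).

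Cdh20 was at 326.5 to 884.9 CPM (median 446.1) in oligodendrocyte-like, 417.2 to 557.6 CPM (median 474.2) in astrocyte-like and 358.6 to 604.7 CPM (median 414.4) in oligodendrocyte precursor-like nuclei. These ranges overlap. Each was above the mean of the other classes, by 3.96 ± 0.19, 3.81 ± 0.20 and 3.66 ± 0.24 on the log2 scale. Cdh20 was not particular to glia, with a mean of 444.5 CPM in deep layer projection and 314.7 CPM in Adarb2 nuclei, and microglia-like nuclei had 12.57 to 163.3 CPM.

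Astrocyte-like nuclei shared Cdh19 at 15.24 to 110.8 CPM (median 57.43; 5.66 ± 0.23, adjusted p = 1.29e-46) and held Cdh10 at 355.6 to 685.7 CPM. Precursor nuclei had less Cdh19, at 7.704 to 35.48 CPM, and far more Pcdh15, at 2206 to 4080 CPM (median 2666; 2.96 ± 0.18, adjusted p = 8.11e-32), against 420.1 to 809.7 CPM in oligodendrocyte-like nuclei, with no overlap. Of 31 members, 8 were called higher in astrocytes (background 15.3%) and 13 in precursors (background 12.1%). Among brain classes only, these were 5 of 30 (background 14.3%) and 7 of 30 (background 10.6%).

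Among the classes fitted, microglia-like nuclei, the resident macrophages, led in Cdh23, at 17.92 to 62.86 CPM (median 33.03). The next mean among these classes was 9.728 CPM. The log2 difference was 3.48 ± 0.43 (adjusted p = 2.64e-11), and 7 members were called higher (background 10.5%), of which Cdh23 alone was still called among brain classes only, where 7.41% of all genes were. The microglial sums held only 53 of the 1982 Cdh23 UFIs of all nuclei. Over all neuron-like nuclei, unnamed groups included, Cdh23 was at 6.969 to 24.2 CPM per library. The median over the means of the fitted classes was 3.144 CPM. Part of the Cdh23 therefore lay in neuron-like groups outside the fit, whose levels were not compared with microglia. Cdh23 overlaps on the other strand with Vsir, an immune checkpoint gene of myeloid cells, and a wrong strand assignment was not tested. Pcdh15 varied from 119.9 to 2975 CPM among the 6 microglial sums, and the median neuron marker sum here, 12180 CPM, was above those of the other glia. Its range overlapped those of astrocyte-like and oligodendrocyte-like sums but not that of precursor sums, 8349 to 11110 CPM.

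In blood vessels, Cdh5 (VE-cadherin), the junction cadherin of endothelium, was at 63.69 to 276.8 CPM (median 146.2) in endothelial cell-like nuclei. The next mean among the classes fitted was 7.305 CPM, while the endothelial cell-like nuclei of the kidney cluster, outside the fit, had Cdh5 at 105.5 and 119.0 CPM. The log2 difference was 7.88 ± 0.26 (adjusted p = 2.56e-51). It is set against classes near 0, with a median of 0.4506 CPM, and the gene passed the count filter through the class where it is high. This difference is therefore a description and no measure of fold. A Cdh5 UFI was present in 75 of 104 of these nuclei (72.1%, exact 95% interval 62.5 to 80.5%) and in 0.660% of 9856 neuron-like nuclei, at median depths of 10576 and 13023 UFIs. Of 31 members, 6 were called higher (background 17.2%), and among brain classes only 4 of 30 (background 16.9%).

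Pcdh12, an endothelial protocadherin, was found in 8 of the 104 nuclei (7.69%) and in 0.183% of neuron-like nuclei. Pcdh18 was at 5.790 to 78.48 CPM (median 44.95). The cluster also held pericyte markers at 532.7 to 1995 CPM, so these 2 genes cannot be assigned to 1 vascular cell type. Cdh1 was at 0 to 95.01 CPM, and 23 of its 41 UFIs in these sums came from Index_fresh.

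The nuclei of the kidney cluster were described last, since they belong to no labelled group and came from Index_frozen libraries only. Of 31 members, 13 to 15 were lower in the 3 tubule classes than in the mean of the other classes, where 9.23 to 12.7% of all genes were lower, and 2 to 4 were higher, where 20.1% (proximal), 22.8% (distal) and 15.4% (collecting duct) of all genes were. The lower shares were 12.7%, 9.23% and 11.5%. The median log2 differences over members were -4.14 to -3.61, and those over all genes -0.31 to 0.09. The summed member level was 823.7 to 1025 CPM.

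E-cadherin (Cdh1) was at 224.5 and 255.7 CPM in distal tubule, 189.9 and 238.1 CPM in collecting duct and 36.95 and 47.94 CPM in proximal tubule nuclei. The collecting duct class was only 22 nuclei, 10 and 12 per library. Its sums also held proximal tubule markers at 4127 to 5189 CPM and distal tubule markers at 3872 to 4385 CPM. The proximal against distal log2 difference was -2.49 ± 0.48 (edgeR quasi-likelihood test, adjusted p = 4.51e-05, n = 2 libraries), but DESeq2 gave an adjusted p of 0.628. N-cadherin went the other way, at 67.12 and 129.3 CPM in proximal and 37.42 and 43.41 CPM in distal nuclei (1.29 ± 0.34, adjusted p = 0.00580). These 2 of 31 members were called where 5.34% of all genes were. All 25 classes entered the same fit and shared its estimate of the spread, so neither p-value rests on the 2 kidney libraries alone. The distal sums also held proximal tubule markers at 6289 to 8116 CPM, against 12770 to 13050 CPM in proximal sums, while distal tubule markers were at 263.7 to 288.7 CPM in proximal and 8707 to 10280 CPM in distal sums. Their part in the differences was not tested. Upper-quartile scaling shifts this pair of classes by 0.16 on the log2 scale as a whole and turned neither direction.

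Cdh16 (kidney-specific cadherin) was at 124.7 and 129.4 CPM in proximal and 145.9 and 152.7 CPM in distal nuclei (log2 difference -0.23 ± 0.41, adjusted p = 0.902). A Cdh16 UFI was in 69.6% of 273 tubule-like nuclei (exact 95% interval 63.8 to 75.0%) and 0.274% of neuron-like nuclei, and a Cdh1 UFI in 54.2% (48.1 to 60.2%) and 0.842%. The median depths were 8725 and 13023 UFIs. Cdh6, a cadherin of the developing nephron, was at 110.3 and 145.5 CPM in proximal and 144.7 and 166.1 CPM in distal nuclei, and Cdh3, not tested, had 28 of its 136 UFIs in the distal class.

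Catenins and other partners were read from a list of 31 genes, and all of them were tested. In kidney distal nuclei 7 were higher than in the mean of the other classes and 10 lower, and all calls were higher ones in endothelial nuclei (12, background 17.2%) and in astrocytes (13, background 15.3%). Distal tubule calls are read against 22.8% of all genes higher and 9.23% lower. Ctnna1, the epithelial form, had a mean of 406.4 CPM in kidney distal, 163.8 in endothelial and 12.5 CPM in upper layer nuclei, Ctnna2, the neural form, 88.3 CPM in kidney distal and 2181 CPM in layer 6 corticothalamic nuclei, and Ctnna3 486.2 CPM in oligodendrocyte-like nuclei. In the pairs, 1 of 31 partners differed between D1 and D2 (background 2%), the calsyntenin Clstn2 (log2 difference 1.23, edgeR quasi-likelihood test, adjusted p = 4.61e-06). There were 4 between upper layer and layer 6 (background 12.5%) and 5 between interneuron classes (9.88%). Between thalamus and cortex 7 differed (16%), and between dentate and cortex 11 (16.4%).

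The groups that the labels give, storage and primer, were compared on UFIs summed over each library, which cannot tell fewer nuclei of a type from less RNA per nucleus. By storage, 0 of 34 members were called between 4 frozen and 3 fresh libraries by edgeR's quasi-likelihood test (background 0.207%). With no background computed, 9 had an unadjusted p under 0.05, and DESeq2 called 4. The median log2 difference was 0.00 over members and 0.01 over all genes. Pcdh1, a delta 1 protocadherin, was at 86.34, 94.23, 80.90 and 83.66 CPM in frozen and 117.0, 120.0 and 92.98 CPM in fresh libraries (-0.30 ± 0.05, adjusted p = 0.0635). These groups overlapped at Index_fresh.

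Pcdh8 did not overlap between groups, at 5.346, 7.196, 5.895 and 4.969 CPM in frozen and 12.65, 11.15 and 7.253 CPM in fresh libraries (-0.70 ± 0.14, adjusted p = 0.115). Together with Pcdh19 it was 1 of 2 members without overlap, where 7.6% of all genes had none. In sums over neuron-like nuclei 0 of 31 members were called by edgeR (background 0.529%), and 1 did not overlap between groups (background 6.4%). With no background computed, 6 had an unadjusted p under 0.05, and DESeq2 called 1.

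By primer, 8 of 34 members were called, 6 higher and 2 lower with the preindex (background 15.8%), and the median log2 difference was 0.13 over members and -0.02 over all genes. Cdh11 was at 336.6, 343.4 and 348.9 CPM with the preindex and 263.7, 269.6, 326.0 and 324.4 CPM without, a log2 difference of 0.33 ± 0.04 (adjusted p = 0.00479), and the groups did not overlap. Cdh7 was lower, at 58.38, 62.65 and 60.30 CPM against 85.41, 84.11, 82.10 and 72.31 CPM (-0.35 ± 0.08, adjusted p = 0.0217), also without overlap. The others were Cdh13 (0.35), Cdh6 (0.28), Pcdh15 (0.24), Cdh2 (0.18) and Pcdh20 (-0.39). Cerebellar granule neuron-like nuclei had a mean Cdh7 of 152.6 CPM. They numbered 43, 48, 29 and 36 in the libraries without the preindex and 0 in each preindexed library. Cdh7 was not called by primer in any of the 20 classes tested singly, which did not include this class. The part of the cell mix in the Cdh7 difference was not tested. With 1 of the 7 libraries left out at a time, the call of Cdh11 was not lost, that of Cdh13 was lost 3 times, those of Cdh1, Cdh6, Cdh7 and Pcdh15 5 times, that of Pcdh20 6 times and that of Cdh2 7 times. For Cdh7 the adjusted p was 0.0600 to 0.0766 where it was lost, which was without any of the 4 frozen libraries or No_index_fresh replicate 1. In neuron-like nuclei 13 of 31 members were called (background 21.2%), 12 higher and 1, Cdh7, lower. Of these, Cdh6, Cdh7 and Cdh8 lost the call 3 times, Pcdh17 4 times and Cdh4 and Cdh10 1 time when a library was left out. Ranges did not overlap for 6 members over all nuclei (background 27.9%) and for 9 in neuron-like nuclei (background 33.5%).

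Cdh1 was at 10.04 and 11.32 CPM in the Index_frozen libraries, which held the kidney cluster, and at 0.6061 to 1.859 CPM in the other 5 libraries, a log2 difference by primer of 1.92 ± 0.50 (adjusted p = 0.0413). Without the nuclei of the kidney and liver clusters the difference was -0.62 (adjusted p = 0.345), so its direction turned. Cdh16 was at 9.774 and 8.460 CPM in the same 2 libraries and at 0 to 0.1649 CPM elsewhere.

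**Figure D5:**
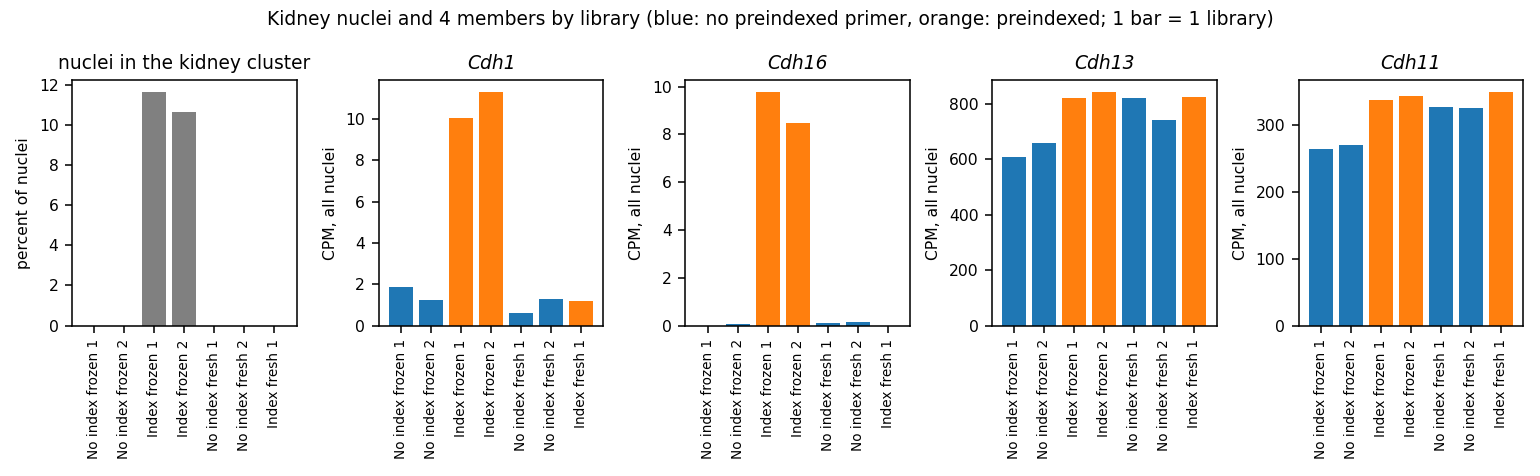
Share of nuclei in the kidney cluster (percent) and level of Cdh1, Cdh16, Cdh13 and Cdh11 (CPM over all nuclei) in each of the 7 brain libraries, with 1 bar per library starting at 0, orange for preindexed and blue for other libraries. The Index_frozen libraries alone hold kidney nuclei, 11.65% and 10.66%, and alone are high in Cdh1 and Cdh16, while Cdh11 is lowest in the No_index_frozen libraries.

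Within single classes the primer comparison gave 14 member calls in 5 of 20 classes. Cdh13 was higher with the preindex by 0.60 in D1 (where 1.11% of all genes were called) and by 0.75 on the log2 scale in dentate nuclei (3.09%), where Cdh18 and Pcdh7 were lower by -1.16 and -0.98. Pcdh15 was lower by -0.61 in D1 and higher by 0.39 in Rorb nuclei (3.46%), a difference between classes that was not tested. In oligodendrocyte-like nuclei (2.6%) Cdh20, Pcdh7 and Pcdh9 were higher by 0.99, 0.84 and 0.86, and in upper layer nuclei (3.76%) Cdh12 and Cdh22 were higher and Pcdh19 was lower by -0.64.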

How the data were processed

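Single-nucleus total RNA was measured in 7 mouse brain libraries. Per the labels and the study's methods, the authors trimmed reads with Cutadapt, chose barcodes with UMI-tools, mapped reads with STAR, counted them over entire genes, introns included, with featureCounts, and deposited raw UFI counts per gene and nucleus. GRCm38, mm10 and GRCh38 are all named as builds, and no tool versions were given for the brain libraries in the sources used here. Groups follow the sample titles. The treatment label conflicts with the title for 4 of 7 libraries, and barcode lengths of 40 and 30 bases go with the titles.

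Nuclei were clustered without members in scanpy 1.11.5 (2000 variable genes, 40 principal components, 10 neighbours, resolution 1.2). No doublet caller was run. The naming rule was written after the clusters were seen, and only named classes entered the class fit. Counts were summed per library, or per library and class (at least 10 nuclei), normalised with TMM factors and fitted in edgeR 4.0.16 (quasi-likelihood test, Benjamini-Hochberg adjustment over all genes, threshold 0.05, and a log2 difference over 1 between classes). All classes entered the same fit and shared its estimate of the spread. The p-values of classes found in few libraries therefore rest also on the spread in other classes. Ranges in class comparisons are over libraries. Where a side held several classes, its CPM was the mean over those present in a library, while the fitted difference averaged their log2 values. DESeq2 1.42.0, other scaling, filters, clustering settings, a replicate block and leaving out each library were alternatives. The fits were tested on simulated data. Exact (Clopper-Pearson) 95% intervals cover counting error only.

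Members, lists and tests were chosen with earlier results of these data known. Genes were named if they led a class (up to 3) or a comparison (up to 5 per direction), were textbook members, or stood out across libraries. Those outside this rule were named after their values were seen.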

Additional observations from a re-analysis of the deposited data

Results flagged for a closer look

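Values of each member were read in groups of 4 libraries, which shared nuclei and mixed storage or primer, so a chance share is only a rough guide. In 11 of 136 such groups a value stood apart from the other 3 libraries, where chance gives about 1 in 20. Over all nuclei and among libraries without a preindex, these were Cdh17 (0.0 CPM) and Cdh19 (2.092 CPM) in No_index_frozen replicate 1, Cdh23 (23.83 CPM) in No_index_frozen replicate 2, Cdh24 (6.668 CPM) in No_index_fresh replicate 2 and Pcdh7 (888.1 CPM) in No_index_fresh replicate 1. Among frozen libraries Cdh9 was highest in No_index_frozen replicate 1, at 122.9 CPM. In neuron-like nuclei without a preindex, No_index_frozen replicate 1 stood apart in Cdh10 (379.0 CPM) and Cdh17 (0.0 CPM), No_index_frozen replicate 2 in Cdh23 (24.2 CPM), No_index_fresh replicate 1 in Cdh2 (470.3 CPM) and No_index_fresh replicate 2 in Cdh7 (75.8 CPM).

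The primer effect differed between frozen and fresh libraries for 9 members over all nuclei by edgeR's interaction term, with only 1 preindexed fresh library behind it, where 16.4% of all 19299 genes tested were called. On the log2 scale, the effect in frozen minus that in fresh libraries was 2.543 for Cdh1 (adjusted p = 0.001336), -0.5748 for Cdh12 (4.558e-05), -0.5256 for Cdh18 (0.001354), -0.4692 for Cdh22 (0.00202), -0.3232 for Cdh4 (0.01346), 3.552 for Pcdh12 (0.03963), -0.2159 for Pcdh7 (0.03158) and -0.3044 for Pcdh9 (0.01043). The value of 12.56 for Cdh16 (adjusted p = 2.795e-05) rests on libraries at 0 and is no bound. The Index_frozen libraries behind the Cdh1 and Cdh16 values held the kidney nuclei. Pcdh12 was also highest in them, at 0.9128 and 0.5976 CPM over all nuclei against 0.06226 to 0.2715 CPM in the others. For Cdh18, Cdh22, Cdh4, Pcdh7 and Pcdh9 the differences were smaller in neuron-like nuclei, at -0.3217, -0.2624, -0.2168, -0.0874 and -0.2093. In neuron-like nuclei 4 of 31 members were called, against 7.2% of all genes, and the same difference was 0.3152 for Cdh11 (adjusted p = 0.007096), -0.3444 for Cdh12 (0.009895), 0.3825 for Cdh13 (0.01204) and 0.3924 for Pcdh10 (0.00845).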

How the results depend on the processing

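Counts of members called by storage over all nuclei went from 0 to 4 with DESeq2, 1 with upper-quartile scaling and 9 with no filter on low counts, and in neuron-like nuclei from 0 to 1 with DESeq2 and 3 with no filter. By primer over all nuclei, 8 calls became 16 with no filter and 13 without kidney and liver nuclei. Proximal against distal tubule gave 5 calls with no filter, 4 with at least 30 nuclei per sum, 4 at resolution 0.4 and 1 with DESeq2, against 2. D1 against D2 gave 6 with 20 principal components and could not be fitted at resolution 0.4, which left no D1 class. The primer difference of Cdh1 turned to -0.62 without kidney and liver nuclei, and that of Cdh13 between upper layer and layer 6 to -1.04 with 20 principal components. The causes were not tested. Shares of all genes called were not computed for these settings, with a library left out or with the replicate block, so these counts have no background.

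Leaving out 1 library at a time gave 1 to 12 calls by primer over all nuclei and 9 to 16 in neuron-like nuclei. Without No_index_frozen replicates 1 and 2 the all-nuclei count was 2 and 3, without either Index_frozen library 1, and without No_index_fresh replicates 1 and 2 it was 4 and 5. Storage calls ranged from 0 to 8 over all nuclei and 0 to 7 in neuron-like nuclei, the highest without Index_fresh. Other ranges were 26 to 32 members higher in at least 1 class, 14 to 17 for upper layer against layer 6, 8 to 9 for interneurons, 1 to 2 for D1 against D2 (1 without No_index_fresh replicate 2), 15 to 17 for dentate, 5 to 7 for thalamus and 2 to 4 for the tubule (4 without No_index_frozen replicate 1).

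Differences between the replicates of a group had little correlation between groups (r between -0.0429 and 0.0421). A deviation shared by libraries of the same replicate number could be small beside the spread of single libraries. These values therefore cannot decide whether replicate numbers pair the libraries. With the replicate block, 4 members were called by primer over all nuclei and 12 in neuron-like nuclei, and 0 by storage in both. Of values of single members, 502 kept direction and call under the other alternatives, 30 lost the call and 2 reversed, and with a library left out 438 kept and 62 lost it. The settings within single classes and on brain classes only were chosen after seeing the data.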
